A study of Homo sapiens with 6 samples.

Results

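The genes described here are 10 genes of MHC class II antigen presentation measured in LN229, an established human glioblastoma line. They are the chains HLA-DRA, HLA-DRB1, HLA-DRB5, HLA-DPA1, HLA-DPB1 and HLA-DQB1, the peptide exchange factor chains HLA-DMA and HLA-DMB, the invariant chain CD74 and the transactivator CIITA. They were chosen by their role and by their level of expression in a line that is not an immune cell, from 33890 genes in the deposited table, so that their levels describe the choice and are not tested. All 10 stood at 1 FPKM or more in all 6 libraries, and all were among the 14380 genes tested. FPKM is a read count per kilobase of a gene's merged exons, scaled by the library's read total. The label of high expression held for some of the genes only: HLA-DRA, CD74 and HLA-DRB1 exceeded 100 FPKM in every library, whereas CIITA, HLA-DQB1 and HLA-DMB lay between 1.21 and 4.40 FPKM in every library.

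Messenger RNA selected by poly(A) was sequenced from 3 libraries of untreated LN229 cells (control) and 3 libraries of LN229 cells kept for 48 h in 800 µM ursodeoxycholic acid (UDCA), a bile acid given to patients with cholestasis. All cells were grown in DMEM with serum and antibiotics, and no vehicle for the control cells is given. The series' title states an interest in UDCA as an agent against glioblastoma, and its design holds the single comparison of UDCA with control. No label states that the libraries of 1 group stem from different cultures. The p-values therefore cover the variation among these 6 libraries alone, and this variation could be technical.

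MHC class II molecules are pairs of an alpha and a beta chain that present peptides from endosomes to CD4+ T cells. They are made in the endoplasmic reticulum with the invariant chain CD74, which fills their groove and guides them to endosomes, where cathepsins trim it and HLA-DM exchanges its last fragment for a peptide. Their genes are usually read in dendritic cells, B cells and macrophages, or in other cells after interferon gamma, and CIITA is the coactivator that this depends on: it binds no DNA itself and docks on RFX, CREB and NF-Y, which sit on the X and Y boxes of class II promoters.

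Promoter sequences show which of the class II genes hold the letters of X and Y boxes upstream. RefSeq entries (GRCh38.p14, 250 bases before to 50 bases after the gene's start) matched 8 of the 10 genes, all but HLA-DRA and CIITA. They were searched on both strands for an X box core (ACNGATG), a Y box (CTGATTGG) and the NF-Y core ATTGG, which lies inside that Y box. The stretches below are the 5 that hold the X box core on the gene's own strand. They lie on the minus strand of chromosome 6, run 5′ to 3′ over 60 bases from 12 bases before the X box core, and have the X box core and, where present, the Y box in capitals.
HLA-DRB1, chr6:32589876-32589935: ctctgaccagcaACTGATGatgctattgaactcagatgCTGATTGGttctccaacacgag
HLA-DRB5, chr6:32530359-32530418: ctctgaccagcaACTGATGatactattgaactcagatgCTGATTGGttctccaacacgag
HLA-DQB1, chr6:32666727-32666786: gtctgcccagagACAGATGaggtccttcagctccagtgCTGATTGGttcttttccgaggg
HLA-DMA, chr6:32953159-32953218: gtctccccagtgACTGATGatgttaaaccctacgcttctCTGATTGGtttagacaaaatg
HLA-DMB, chr6:32941065-32941124: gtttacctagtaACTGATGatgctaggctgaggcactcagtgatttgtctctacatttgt

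The stretches of HLA-DRB1 and HLA-DRB5 were identical at 59 of 60 bases. Those of HLA-DRB1 and HLA-DQB1 shared 39 of 60 bases, and those of HLA-DMA and HLA-DMB 34 of 60. The Y box began 26 bases after the start of the X box core in HLA-DRB1, HLA-DRB5 and HLA-DQB1 and 27 bases after it in HLA-DMA. In HLA-DMB the letters of the Y box were not found in this window. Of 35116 promoter entries of the same length, 7.65% hold ACNGATG, 3.97% hold CTGATTGG and 34.6% hold ATTGG. The X box core followed by the Y box at a spacing of 26 or 27 bases, a spacing read from these very promoters, was found in 4 of the 35116 entries, and these are the 4 genes named. In CD74 the X box core was found on the opposite strand, and the core ATTGG was present on either strand in all 8 matched genes but HLA-DPA1. These matches describe letters and do not show that a factor was bound.

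Levels spanned a wide range among the 10 genes, as the plot of FPKM by library shows. In control libraries HLA-DRA and CD74 led, at ranks 33 and 34 of the 14380 tested genes, and their ranges overlapped. HLA-DRB1 followed at rank 226, and then came HLA-DPA1, HLA-DMA, HLA-DPB1, HLA-DRB5, CIITA, HLA-DQB1 and HLA-DMB, with no overlap between neighbours. With UDCA the order changed at the top, where CD74 stood at rank 13 and HLA-DRA at rank 34 without overlap. HLA-DPB1 then stood above HLA-DMA and HLA-DQB1 above CIITA, also without overlap. FPKM is per kilobase of all merged exons of a gene, and these span 20757 bases for CIITA but 1280 for HLA-DRA. Scaled instead by the shortest transcript with a CCDS coding sequence, an alternative chosen after seeing the data, CIITA stood at 36.3 FPKM in control and 18.4 with UDCA, and CD74 at 1564 and 1854. All reads of the merged exons were divided by this shorter length, 2344 bases for CIITA and 981 for CD74. These values can therefore overstate the level and are upper limits rather than estimates.

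**Figure D1:**
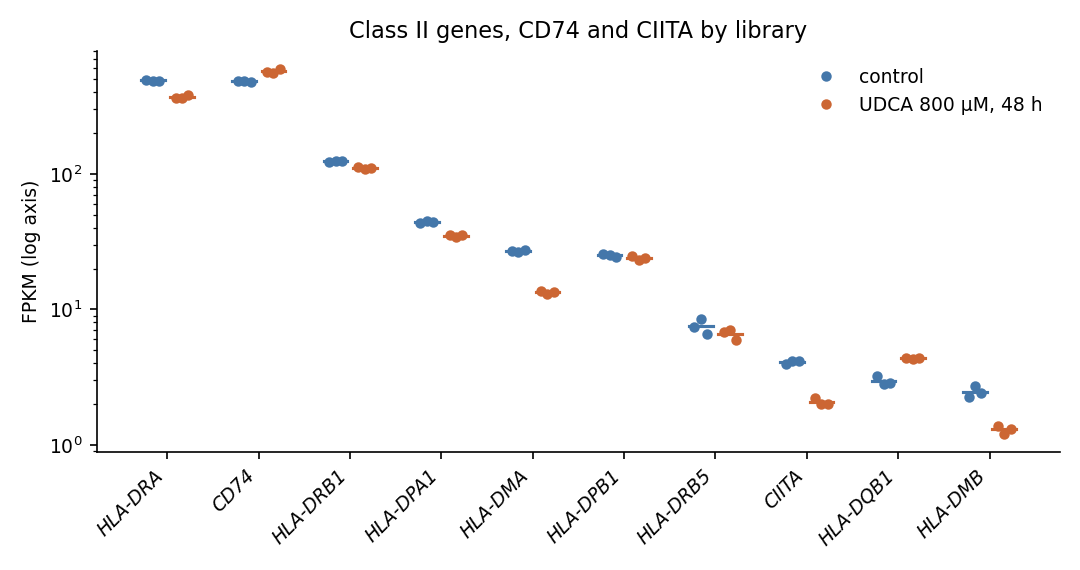
FPKM of the 10 genes in each library (points, log axis), with control and UDCA libraries side by side; the dash gives the mean of 3 libraries. HLA-DRA, CD74 and HLA-DRB1 lie above 100 FPKM in every library, and the groups overlap only for HLA-DRB5 and HLA-DPB1.

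With UDCA 6 of the 10 genes were lower and 2 were higher. HLA-DMA, HLA-DMB, CIITA, HLA-DRA, HLA-DPA1 and HLA-DRB1 fell, CD74 and HLA-DQB1 rose, and HLA-DRB5 and HLA-DPB1 did not pass the test (limma-trend on log2(FPKM + 1), Benjamini-Hochberg adjusted over all 14380 genes, threshold 0.05). These 8 calls are 8 of 10 genes, against 80.8% of all tested genes called, so the number of calls is near the background. Of all tested genes 45.1% were called higher and 35.7% lower. The groups did not overlap for the same 8 genes, against 82.8% of all tested genes. The median log2 change of the 10 genes was -0.24, and that of all tested genes was 0.10. In bulk RNA, fewer cells of a type and less RNA per cell cannot be told apart.

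CIITA (chromosome 16, 10866222 to 10943021, plus strand), the transactivator of the class II genes, measured 3.97, 4.17 and 4.16 FPKM in the control libraries and 2.21, 2.02 and 2.01 with UDCA. Every UDCA library lay below every control library. The mean fell 1.97-fold, from 4.10 ± 0.111 to 2.08 ± 0.112 FPKM (SD, n = 3 each; log2 change -0.73, SE 0.0525, limma adjusted p = 1.22e-05). The value rests on 4393 recovered reads in the 3 control libraries and 2156 in the 3 UDCA libraries. In the annotation 23.4% of the exon bases of CIITA are shared with other genes, among them DEXI on the opposite strand. The treatment of strand by the counting program is not given in the sources used here, and strand would not set AC133065.3 apart. Reads of such genes could therefore not be separated from those of CIITA.

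The DR pair carried most of the class II message. HLA-DRA (chromosome 6, 32439842 to 32445046, plus strand), the alpha chain of HLA-DR, measured 495, 488 and 484 FPKM in control libraries and 366, 365 and 380.4 with UDCA. No UDCA library reached the lowest control library. The mean fell 1.32-fold, from 489 ± 5.28 to 370.4 ± 8.71 FPKM (log2 change -0.40, SE 0.0224, limma adjusted p = 3.17e-06). With quantile normalization the change of HLA-DRA was -0.03 and its call was lost (limma adjusted p = 0.167). HLA-DRB1 (32578769 to 32589848, minus strand), the main beta chain of HLA-DR, measured 123, 124 and 125 FPKM in control and 112, 109 and 110.4 with UDCA. These groups were also apart. The mean fell 1.12-fold, from 124 ± 1.30 to 111 ± 1.49 FPKM (log2 change -0.16, SE 0.0191, limma adjusted p = 0.000171), and the change was -0.25 with scaling by the median ratio of genes and -0.11 with quantile normalization.

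HLA-DRB5 (chromosome 6, 32517343 to 32530287, minus strand), another beta chain gene of HLA-DR, was far lower and overlapped between groups. The further DR beta genes HLA-DRB3 and HLA-DRB4 are not among the genes of the deposited data, so their levels are not known. Its values were 7.44, 8.49 and 6.53 FPKM in control and 6.75, 6.98 and 5.98 with UDCA, so that 2 of the 3 UDCA libraries lay above the lowest control library. The log2 change was -0.16 with a 95% interval of -0.38 to 0.06, and the limma adjusted p was 0.151. The gene passed the test without control replicate 3 (log2 change -0.24, adjusted p = 0.0354), with median-ratio scaling (-0.24, adjusted p = 0.0433) and with quantile normalization (-0.23, adjusted p = 0.049997). Without control replicate 2 its change was -0.08. HLA-DRB1 and HLA-DRB5 are close paralogs: 9.92% of the 50-base windows of the HLA-DRB1 transcript occur in transcripts of other genes, mostly HLA-DRB5, and 8.42% of those of HLA-DRB5 occur in HLA-DRB1, whereas no window of 100 bases was shared. How reads that fit several genes were counted is not given in the sources used here, so the split between these 2 genes is uncertain.

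Of the DP chains, the alpha chain passed the test and the beta chain did not. HLA-DPA1 (chromosome 6, 33064569 to 33080775, minus strand), the alpha chain of HLA-DP, measured 43.2, 44.7 and 44.2 FPKM in control and 35.7, 34.3 and 35.2 with UDCA. The groups were apart and the mean fell 1.26-fold, from 44.0 ± 0.803 to 35.1 ± 0.706 FPKM (log2 change -0.32, SE 0.0252, limma adjusted p = 1.94e-05). HLA-DPB1 (33075926 to 33087201, plus strand), its beta chain, measured 25.8, 25.0 and 24.2 FPKM in control and 24.6, 23.2 and 24.0 with UDCA. The groups overlapped, since the highest UDCA library lay above the lowest control library. The log2 change was -0.06 with a 95% interval of -0.14 to 0.02 (limma adjusted p = 0.147). Median-ratio scaling gave -0.15 and a call (limma adjusted p = 0.00491). The annotated exons of HLA-DPA1 and HLA-DPB1 overlap by 96 bases on opposite strands.

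HLA-DQB1 (chromosome 6, 32659467 to 32668383, minus strand), the beta chain of HLA-DQ, went the other way. It measured 3.20, 2.80 and 2.88 FPKM in control and 4.36, 4.29 and 4.40 with UDCA. All UDCA libraries lay above all control libraries. The mean rose 1.47-fold, from 2.96 ± 0.211 to 4.35 ± 0.0517 FPKM (log2 change 0.44, SE 0.0541, limma adjusted p = 0.000230), on 748 and 1067 recovered reads in the groups. Its partner HLA-DQA1, the alpha chain of HLA-DQ, is not among the 10 genes. It measured 9.11, 8.76 and 9.84 FPKM in control and 17.4, 18.3 and 19.4 with UDCA, which is a rise of 1.99-fold (log2 change 0.92, limma adjusted p = 3.89e-06). Both measured chains of HLA-DQ were thus higher with UDCA, while no chain of HLA-DR or HLA-DP was called higher. Short windows of both DQ genes also occur in paralogs, with 4.90% of 50-base windows of HLA-DQB1 found in HLA-DQB2 and 14.5% of those of HLA-DQA1 found in HLA-DQA2.

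The exchange factor showed the largest falls among the chains. HLA-DMA (chromosome 6, 32948613 to 32969094, minus strand), the alpha chain of HLA-DM, measured 26.8, 26.6 and 27.2 FPKM in control and 13.8, 13.1 and 13.4 with UDCA. The groups were far apart relative to their spread. The mean fell 2.004-fold, from 26.9 ± 0.314 to 13.4 ± 0.357 FPKM (log2 change -0.95, SE 0.0283, limma adjusted p = 1.36e-07). HLA-DMB (32934629 to 32941070, minus strand), its beta chain, measured 2.25, 2.73 and 2.41 FPKM in control and 1.38, 1.21 and 1.32 with UDCA. These groups did not overlap either. The mean fell 1.89-fold, from 2.46 ± 0.249 to 1.30 ± 0.0877 FPKM (log2 change -0.59, SE 0.0749, limma adjusted p = 0.000266), on 592 and 303 recovered reads. A read-through transcript, AL645941.2, shares sequence with both genes: 11.6% of 50-base windows of HLA-DMA and 29.01% of those of HLA-DMB occur in it, so their levels are uncertain to that extent.

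HLA-DO is a class II-like pair that holds HLA-DM in check. Its alpha chain HLA-DOA measured 12.1, 11.5 and 12.04 FPKM in control and 17.7, 17.3 and 17.5 with UDCA. The groups were apart, and the mean rose 1.47-fold (log2 change 0.52, limma adjusted p = 3.70e-06). The beta chain HLA-DOB averaged 0.541 FPKM in control and 0.375 with UDCA and was too low to be tested. The DM and DO alpha chains thus changed in opposite directions. Of 14 other class II genes and pseudogenes named for comparison, 8 are in the table and 3 were tested. These were HLA-DQA1, HLA-DOA and the pseudogene HLA-DRB9, all called higher, against 45.1% of all tested genes. HLA-DRB9 rests on 8 recovered reads in control and 49 with UDCA. It passed the filter only through the UDCA libraries, so it could not have been called lower.

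CD74 (chromosome 5, 150401637 to 150412929, minus strand), the invariant chain, measured 483, 487 and 476 FPKM in control and 562, 558 and 594 with UDCA. All UDCA libraries were higher than all control libraries. The mean rose 1.19-fold, from 482 ± 6.01 to 571 ± 19.8 FPKM (log2 change 0.24, SE 0.0280, limma adjusted p = 0.000148). The size of this rise moved with the scaling between libraries, to 0.15 with median-ratio scaling and to 0.88 with quantile normalization. CD74 gave 79138 recovered reads in control and 90980 with UDCA, the most of the 10 genes, and shared no 50-base window with another gene.

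Proportions between chains were compared within libraries, where scaling between libraries cancels. CD74 over HLA-DRA was 0.976, 1.000 and 0.982 in control and 1.54, 1.53 and 1.56 with UDCA, so it was higher in every treated library (exact 2-sided permutation p = 0.1, the smallest that 3 against 3 allow; 0.14 adjusted over 7 ratios). The absolute size of each ratio depends on the exon lengths used. The change between groups does not for ratios of single genes, but it can for the ratios that hold a sum of genes. Scaled by the shortest CCDS transcript, which can overstate CD74, CD74 and HLA-DRA stood at 1564 and 489 FPKM in control and at 1854 and 370 with UDCA. HLA-DRA over HLA-DRB1 plus HLA-DRB5 fell from 3.72 ± 0.0712 to 3.16 ± 0.0995, and HLA-DPA1 over HLA-DPB1 from 1.76 ± 0.0809 to 1.46 ± 0.0133. HLA-DM over HLA-DRA, as the sum of both DM chains, was 0.0601 ± 0.00124 in control and 0.0398 ± 0.00147 with UDCA, and HLA-DQB1 over HLA-DRB1 was 0.0239 ± 0.00190 and 0.0393 ± 0.000480. In each of these 5 ratios the groups did not overlap and the exact permutation p was 0.1, so none can pass a threshold of 0.05 in this design. The other 2 ratios overlapped: HLA-DMA over HLA-DMB was 11.0 ± 1.13 and 10.3 ± 0.431 (exact permutation p = 0.5), and HLA-DRB5 over HLA-DRB1 was 0.0604 ± 0.00819 and 0.0594 ± 0.00489 (exact permutation p = 0.9).

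**Figure D2:**
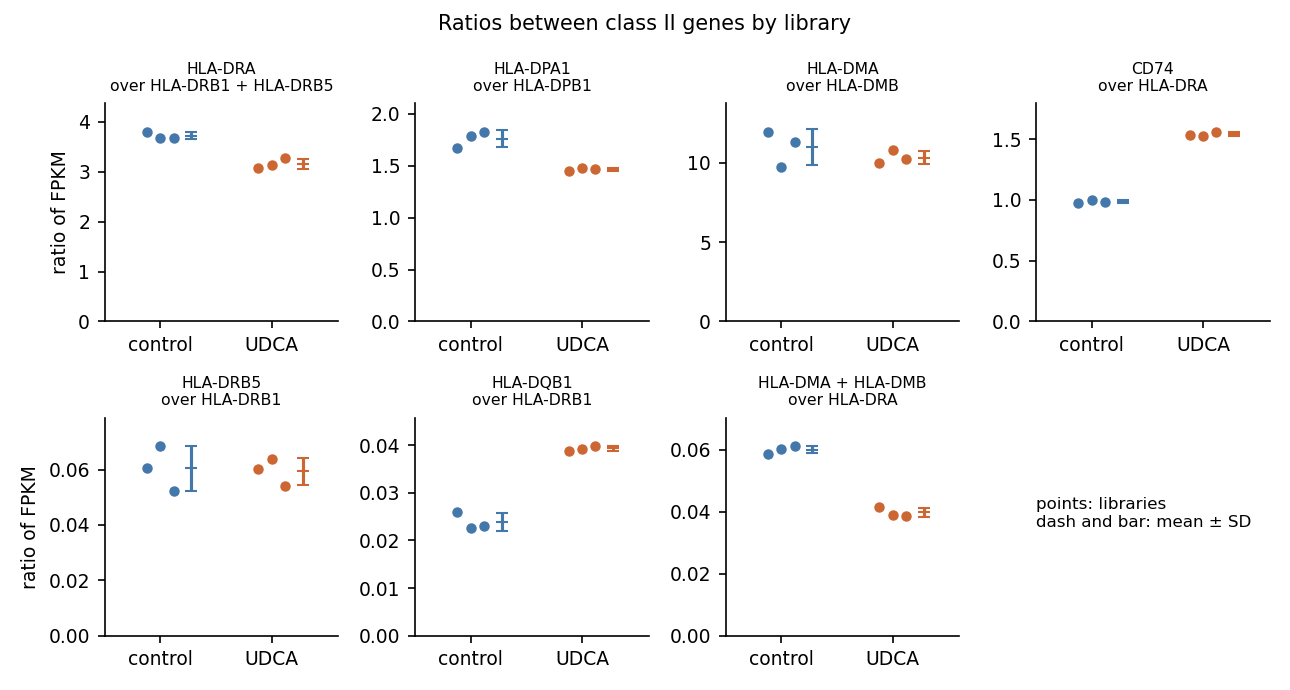
Ratios of FPKM between class II genes in each library (points; dash and bar give mean ± SD of 3 libraries; every axis starts at 0). CD74 over HLA-DRA stands at 0.976 to 1.000 in control and 1.53 to 1.56 with UDCA, while HLA-DMA over HLA-DMB and HLA-DRB5 over HLA-DRB1 overlap between groups. The absolute height of each ratio depends on the exon lengths used.

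Summed over the 8 HLA genes and CD74, the level was 1209, 1209 and 1193 FPKM in control and 1126, 1116 and 1169 with UDCA. The means, 1204 ± 9.43 and 1137 ± 28.4 FPKM, differed by -5.55%, or -66.8 FPKM (exact permutation p = 0.1). With median-ratio scaling the difference was -140 FPKM. Without CD74 the sum went from 722 ± 4.46 to 566 ± 8.96 FPKM, a difference of -21.6%. As a percentage of the summed FPKM of the library, the 9 genes took 0.496% ± 0.00159 in control and 0.490% ± 0.0106 with UDCA, and these overlapped (exact permutation p = 0.4).

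The genes between HLA-DRA and HLA-DPB1 on chromosome 6 included called genes of both directions. Of 23 listed genes in this segment of 647 kb, 18 were tested, of which 8 were called higher, 7 lower and 3 neither, which is near the shares of 45.1% and 35.7% over all tested genes. Among those called higher, HLA-DRB9 and PSMB8-AS1 passed the filter only through the UDCA libraries. Class II genes that fell lay beside genes that rose, as the plot of log2 change along the segment shows. HLA-DMA and HLA-DMB lay between HLA-DOA on one side and TAP1 and PSMB9 on the other. TAP1 and PSMB9, which serve MHC class I, rose from 7.91 to 20.6 and from 8.50 to 22.7 FPKM. BRD2, a bromodomain protein whose gene adjoins HLA-DMA, fell from 43.2 ± 0.534 to 26.4 ± 0.997 FPKM (log2 change -0.69, limma adjusted p = 1.05e-06). Annotated exons of HLA-DMA and BRD2 overlap by 55 bases on opposite strands.

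**Figure D3:**
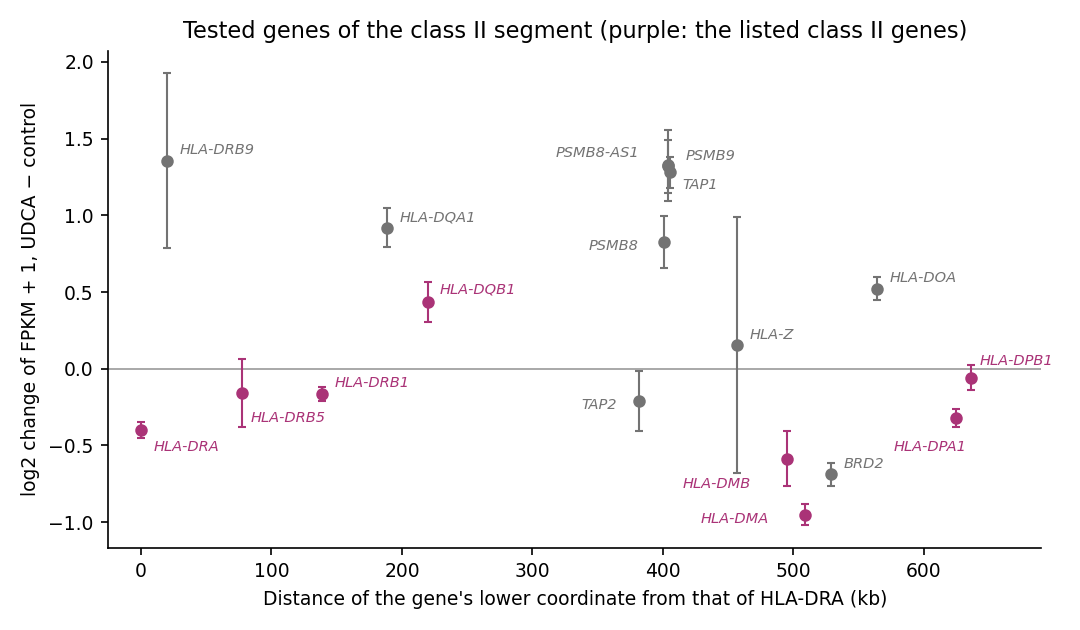
Log2 change (UDCA minus control, on log2(FPKM + 1), with 95% intervals) of the 18 tested genes of the segment, against the distance of each gene from HLA-DRA in kb; purple marks class II genes among the 10. Falls of HLA-DMA (-0.95) and HLA-DMB (-0.59) lie between rises of PSMB9 (1.32) and HLA-DOA (0.52). Their nearest tested neighbours are HLA-Z (0.16, not called) and BRD2 (-0.69, called lower).

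Factors that dock on the X and Y boxes of class II promoters in general were mostly lower. Of 8 tested, 6 were called lower and 2 higher, against 35.7% lower and 45.1% higher over all tested genes. That all 8 were called is near the share of 80.8% called in either direction. Their median was -0.28 on the log2 scale beside 0.10 for all tested genes. RFX5, the DNA-binding subunit of RFX, fell from 22.8 ± 0.602 to 18.8 ± 0.466 FPKM (limma adjusted p = 0.000180), and RFXANK fell from 12.4 ± 0.554 to 11.0 ± 0.328 (limma adjusted p = 0.00789). RFXAP, the remaining RFX subunit, rose from 4.08 ± 0.154 to 6.18 ± 0.711 FPKM (limma adjusted p = 0.000768). All 3 subunits of NF-Y, which binds the Y box, were called lower, and NFYB moved most, from 6.06 ± 0.363 to 3.39 ± 0.158 FPKM (limma adjusted p = 2.26e-05). CREB1 rose from 6.87 to 9.71 FPKM and ATF1 fell from 10.3 to 8.28.

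The 13 tested coactivators and antagonists of CIITA split into 7 called higher and 6 called lower, against 45.1% and 35.7% of all tested genes. Their median log2 change was 0.16, beside 0.10 for all tested genes. KAT2B, an acetyltransferase that modifies CIITA, was 23.6, 24.2 and 25.0 FPKM in control and 4.19, 3.84 and 3.81 with UDCA, a fall of 6.15-fold. HDAC1, a deacetylase that antagonises CIITA, fell from 45.8 to 15.8 FPKM. ZXDC, a zinc finger protein that binds CIITA, rose 2.74-fold, from 6.50 to 17.8 FPKM, and ZXDB rose from 1.99 to 5.35. HDAC2 rose from 6.20 to 7.04 FPKM. Genes that aid CIITA and genes that oppose it were thus found among both the risen and the fallen.

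The interferon gamma pathway, through which CIITA is induced in many cells that are not immune cells, held more genes called higher than lower. Of 14 tested genes 10 were called higher, 3 lower and PTPN11 neither, against 45.1% higher and 35.7% lower over all tested genes. Their median log2 change was 0.34, beside 0.10 for all tested genes. IRF1, a factor that binds an inducible CIITA promoter, measured 1.28, 1.32 and 1.46 FPKM in control and 22.3, 22.5 and 23.8 with UDCA. The groups were apart by a rise of 16.9-fold (log2 change 3.34, limma adjusted p = 5.04e-09). JAK2 rose 2.65-fold and the receptor chain IFNGR1 2.39-fold, whereas SOCS3, a feedback inhibitor of JAK signalling, fell from 29.1 to 13.3 FPKM. The cytokine gene itself, IFNG, is listed at 0 in all control libraries and averaged 0.0171 FPKM with UDCA. All 7 genes of an MHC class I list were called higher (median log2 change 1.03, against 45.1% of all tested genes called higher). Among them were HLA-B at 11.5 and 34.6 FPKM and NLRC5, the class I counterpart of CIITA, at 0.584 and 2.34 FPKM. B2M, also on this list, went only from 88.5 to 92.3 FPKM (log2 change 0.06, limma adjusted p = 0.0340). This change is below the median of 0.10 over all tested genes, so the call of B2M may depend on the scaling between libraries. NLRC5 passed the filter only through the UDCA libraries, so it could not have been called lower.

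**Figure D4:**
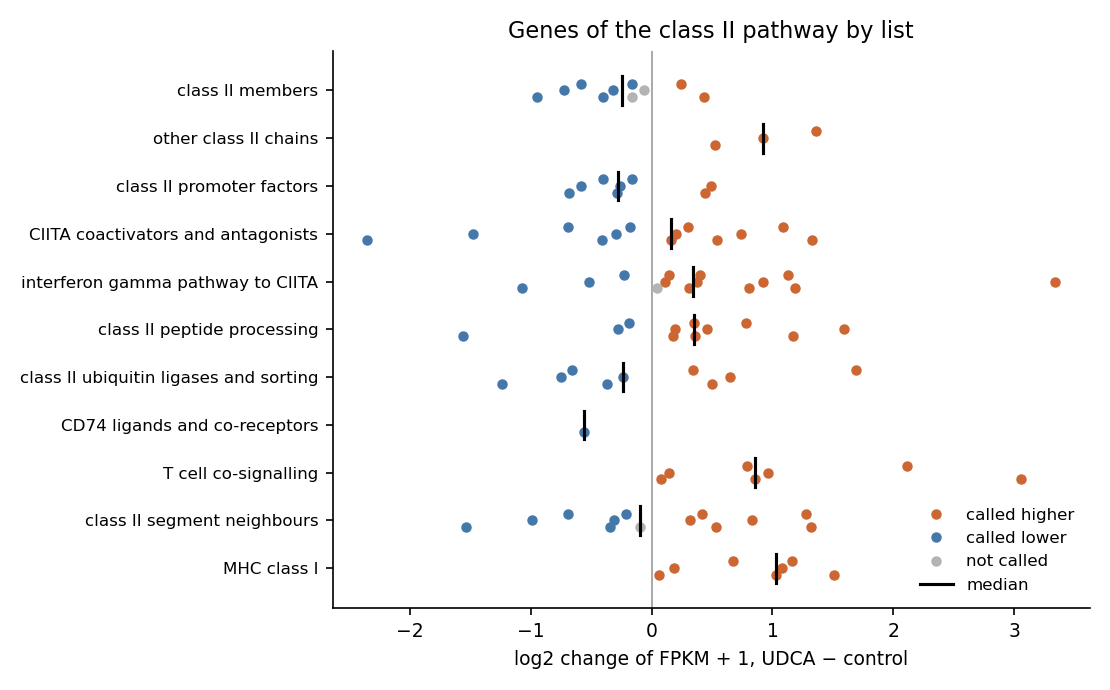
Log2 change (UDCA minus control, on log2(FPKM + 1)) of the tested genes of each list, each point a gene, with the median as a bar. The 10 class II genes have a median of -0.24, promoter factors -0.28, the interferon gamma pathway 0.34 and MHC class I 1.03.

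Enzymes that trim CD74 and make peptides in endosomes, with their inhibitors, were mostly higher. Of 11 tested, 8 were called higher and 3 lower, against 45.1% higher and 35.7% lower over all tested genes. Their median log2 change was 0.35, beside 0.10 for all tested genes. CTSS, the cathepsin that completes the trimming of CD74 in antigen-presenting cells, was low, at 2.13, 2.24 and 2.23 FPKM in control and 2.47, 2.83 and 2.66 with UDCA. It was called higher (log2 change 0.19, limma adjusted p = 0.0209), but not with median-ratio scaling (adjusted p = 0.0900) or without control replicate 1, UDCA replicate 2 or UDCA replicate 3 (adjusted p = 0.0633, 0.0718 and 0.0520). CTSL, a related lysosomal cathepsin, measured 26.3, 27.2 and 26.6 FPKM in control and 81.9, 81.9 and 83.2 with UDCA, a rise of 3.08-fold. CTSD rose 2.28-fold, from 41.5 to 94.5 FPKM. CTSV, the cathepsin of human thymic epithelium, fell from 2.13 to 0.0592 FPKM. It passed the filter only through the control libraries, so it could not have been called higher. CSTB, a cathepsin inhibitor, rose from 9.48 to 17.0 FPKM. IFI30, the thiol reductase of class II compartments, averaged 0.0161 FPKM in control and 0.0479 with UDCA and was not tested.

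CD74 is also a surface receptor for the cytokine MIF, with CD44 as its signalling partner. CD44 fell from 65.0 ± 0.541 to 43.9 ± 0.927 FPKM while CD74 rose. MIF is listed at 0.596, 0.577 and 0.661 FPKM in control and 0.226, 0.265 and 0.372 with UDCA, below the level needed for a test. In the annotation 61.9% of its exon bases are shared with other genes, so this low level is uncertain. The chemokine receptors CXCR4, CXCR2 and ACKR3, which can pair with CD74, were all too low to be tested.

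Markers of the immune cells that usually carry class II were near 0. Of 25 immune markers, 16 are in the table, and 14 of these stayed under 1 FPKM in every library. PTPRC, the common leukocyte marker, did not exceed 0.0590 FPKM in any library, and the B cell marker MS4A1 did not exceed 0.0128. The exceptions were the actin-associated genes LCP1, at 2.39 FPKM in control and 6.12 with UDCA, and CORO1A, at 1.09 and 0.0327. The summed markers ran from 4.73 to 5.99 FPKM in control and from 6.94 to 7.75 with UDCA. The summed level of 7 glioma line markers, led by VIM, NES and SOX2, went from between 462 and 474 FPKM to between 152 and 155. EGFR of the same list was called higher, from 6.74 to 9.17 FPKM, OLIG2 was not called, at 4.59 and 4.81 FPKM, and GFAP was too low to be tested. The part of these markers in the changes of class II genes was not tested.

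The genes with the profile nearest to the median of the 10 genes, among 10353 genes compared over 6 libraries by Euclidean distance of centred log2(FPKM + 1), were SRSF4, ZNF510, NDUFS5, RCOR1 and PER2, at distances of 0.0367 to 0.0505. Those nearest to CIITA were NAA40, PLXND1 and PPP4R1, at 0.0423 to 0.0531. With 2 groups, this measure reflects mainly the difference between them. NAA40 went from 19.3 to 11.4 FPKM, a log2 change of -0.71 beside -0.73 for CIITA. The pseudocount of 1 understates the change of CIITA more, since CIITA went from 4.10 to 2.08 FPKM.

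Depth was similar in both groups, at 15988951 to 17743022 recovered reads per library. Replicate libraries of a group differed by a chi-square per degree of freedom of 1.67 to 2.73, which is above sampling noise, and were kept as separate samples. UDCA replicate 3 lay furthest from the others, and without it the same 8 genes passed the test.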

How the data were processed

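Per the labels' protocols, poly(A) RNA was used for Illumina TruSeq libraries. The tools HISAT2 and Bowtie2 2.0.6 and the build GRCh38 are named in the submitters' processing notes. How reads were counted (program, strand, reads in several places) is not given in the sources used here. Nor is a unit named for the deposited values, and it was inferred. Each value times the merged exon length in GENCODE 29 comes out as whole multiples of a fixed step in each library (100% of values within 0.01 reads), so the deposited values are taken as FPKM, scaled only by the library's total. The recovered reads come to 16639832 to 17743022 per control library and 15988951 to 17045218 per UDCA library. A count of 3 reads in 1 kb equals 0.169 to 0.188 FPKM, for counting error only. All 33890 Ensembl genes matched GENCODE 29.

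Groups follow the labels. Genes reaching 1 FPKM in 3 or more of the 6 libraries were fitted with limma 3.58.1 (R 4.3.3), limma-trend on log2(FPKM + 1), pseudocount 1, 2-sided, Benjamini-Hochberg over all 14380 genes, threshold 0.05. Folds are ratios of mean FPKM; log2 changes on this scale understate the change of low genes. Ratios and sums were compared by exact permutation. The code of the fit was tried on simulated data in which few genes changed, all of them with many reads. That setting does not show how the fit performs for low genes or where most genes are called, as here. Tables and figures used Python 3.11.15, pandas 2.3.3 and matplotlib 3.10.9. Promoter sequences are from RefSeq (GRCh38.p14).

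The genes and lists were chosen with earlier results of these data known. All 10 genes are named, and per list up to 4 called genes that changed most and reached 2 FPKM in the higher group, plus RFX5, RFXAP, RFXANK, IRF1, JAK2, CTSS and MIF. Some items that this rule covers are not reported here. Other names were chosen after their values were seen. Alternatives were quantile normalization, median-ratio scaling, no filter, a pseudocount of 0.1, a replicate block, voom on recovered reads, leaving out each library, HLA-DRB1 alone as the DR beta chain and the sum without CD74. The scaling by CCDS transcripts was added after seeing the data.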

Additional observations from a re-analysis of the deposited data

How the results depend on the processing

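Of 120 log2 changes of the 10 genes under the alternatives, none reversed and 114 kept their direction and their side of the threshold. HLA-DRA lost its call with quantile normalization, and 5 values of HLA-DRB5 and HLA-DPB1 gained one. Of 480 values of the other named genes, 12 lost their call, 4 of them for CTSS and 8 for CD58. These named genes were mostly those that changed most. Over all genes of the lists other than the 10, 83 were called, 54 higher and 29 lower. With median-ratio scaling 76 were called, 46 higher and 30 lower, so the counts called higher per list depend in part on the scaling. Across all genes, 11624 were called; leaving out 1 library gave 11218 to 11381, and no filter on low values gave 14451 of 33890. Median-ratio scaling, which took the median gene from 0.10 to 0.02, called all 10 genes, 8 lower and 2 higher. The difference in the summed level of the 9 genes, -66.8 FPKM, was -140 with that scaling and -156 for the sum without CD74; leaving out 1 library gave -82.9 to -56.0. Replicate numbers did not pair the samples: the deviations of same-numbered libraries correlated at -0.00119 to 0.0143. With the replicate block 11503 genes were called, 6427 higher and 5076 lower, and 9 of the 10 genes, with HLA-DRB5 added (adjusted p = 0.0300); paired by number, the mean differences of the chain ratios, such as 0.65 for CD74 over HLA-DRA on the log2 scale, equal the unpaired ones by construction and test nothing. Depth limits HLA-DMB, HLA-DRB5 and HLA-DQB1 most, with 303 to 1067 reads per group.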

Other observations

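Surface molecules that accompany class II on antigen-presenting cells were either near 0 or mostly higher with UDCA. Of 14 genes of T cell co-signalling 7 were tested, and all 7 were called higher (median log2 change 0.86), against 45.1% of all tested genes. ICOSLG (0.171 and 1.12 FPKM) and PDCD1LG2 (0.156 and 1.26 FPKM) passed the filter only through the UDCA libraries. They could not have been called lower, and the median is the value of ICOSLG, so the filter shaped this count in part. For CD58, an adhesion molecule, the call (limma adjusted p = 0.0497) was lost under 8 of 12 alternatives, for example median-ratio scaling (log2 change 0.06, adjusted p = 0.379). ICAM1, an adhesion molecule, rose 8.99-fold, from 10.8 ± 0.781 to 97.1 ± 3.63 FPKM, and CD274, which encodes the inhibitory ligand PD-L1, rose 7.60-fold, from 1.00 ± 0.285 to 7.61 ± 0.704 FPKM. The classical costimulators CD80, CD86 and CD40 averaged 0.00584 to 0.0470 FPKM in each group and were not tested.

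Ubiquitin ligases and sorting proteins that set the surface life of class II molecules were mixed. Of 9 tested genes 4 were called higher and 5 lower, against 45.1% and 35.7% of all tested genes. The tetraspanin CD82 rose from 2.81 ± 0.249 to 11.3 ± 0.144 FPKM, and the tetraspanins CD63 and CD9 fell from 294 to 186 and from 8.38 to 4.57 FPKM. AP2M1, a subunit of the clathrin adaptor at the plasma membrane, fell from 96.0 ± 1.06 to 40.2 ± 1.40 FPKM. MARCH8, a ligase for class II chains, rose from 3.795 to 5.07 FPKM.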
